A study of Mus musculus with 4 samples.

Results

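The 10 genes described here encode subunits of the voltage-gated calcium channels: the pore-forming α1 subunits Cacna1a, Cacna1b, Cacna1c, Cacna1d, Cacna1e, Cacna1g and Cacna1h, and the cytoplasmic β subunits Cacnb1, Cacnb3 and Cacnb4. They were chosen by gene symbol among 23038 genes in the expression files. All alternative splicing events listed under their gene identifiers were included, which gave 58 of 38240 events. Messenger RNA was sequenced from the cortex of E14.5 mouse embryos, 2 control (Qk fl/fl, named wild type in the labels) and 2 Qk cKO (Nestin-Cre:Qk fl/fl). Qk encodes the RNA-binding protein Quaking, a regulator of splicing, and the question was which transcripts and exons differ when it is removed. Both groups carried the floxed Qk alleles, and Cre was the difference between them. Nestin-Cre is active in neural progenitors and is inherited by their progeny, so that vessels, blood and microglia in the tissue keep the Qk gene. The 2 samples of each group came from different littermate embryos.

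Calcium channels open when the membrane is depolarized and convert electrical activity into calcium entry. The α1 subunit forms the pore and the voltage sensor, and it decides whether the current is of the L type (Cacna1c, Cacna1d), the P/Q, N or R type (Cacna1a, Cacna1b, Cacna1e) or the low-voltage-activated T type (Cacna1g, Cacna1h). The β subunits bind the intracellular loop between the first and the second repeat of the L, P/Q, N and R type pores, bring them to the membrane and tune their gating, whereas T type pores work without them. Many exons of these genes are alternative, and exon choice alters gating, drug binding and the partners of the channel as neurons mature.

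The cassette exon on which the main splicing result rests is exon 14 of transcript Cacna1g-202. It lies at chr11:94439709-94439777 (mm10, minus strand) and has 69 bases. The exon is wholly coding, holds 23 codons in frame at coding bases 2911 to 2979 of 6885, and is flanked by introns of 2952 bases upstream and 1519 bases downstream. In the GENCODE M21 annotation, 6 transcripts joined it to both neighbouring exons and 6 skipped it. It is shown with the last 20 bases of the exon before it and the first 20 bases of the exon after it, and the capitals mark the alternative exon itself.
Cacna1g exon 14: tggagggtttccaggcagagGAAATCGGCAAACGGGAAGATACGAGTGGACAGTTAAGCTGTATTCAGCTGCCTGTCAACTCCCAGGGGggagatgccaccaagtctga

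The L type genes each have a pair of mutually exclusive exons of 104 bases, of which a transcript uses 1, and which encode the sixth membrane-spanning segment of the first repeat. They are printed because the same choice was measured in both genes. In Cacna1c the 5′ exon lies at chr6:118742265-118742368 and the 3′ exon at chr6:118741871-118741974. In Cacna1d the 5′ exon lies at chr14:30171956-30172059 and the 3′ exon at chr14:30171296-30171399. All are coding and on the minus strand. Capitals mark the positions at which the 2 exons of a pair differ.
Cacna1c 5′ exon: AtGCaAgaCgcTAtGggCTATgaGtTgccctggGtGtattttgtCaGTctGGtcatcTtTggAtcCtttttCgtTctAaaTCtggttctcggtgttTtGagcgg
Cacna1c 3′ exon: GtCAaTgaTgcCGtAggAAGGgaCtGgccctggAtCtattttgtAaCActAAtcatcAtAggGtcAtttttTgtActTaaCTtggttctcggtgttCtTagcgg
Cacna1d 5′ exon: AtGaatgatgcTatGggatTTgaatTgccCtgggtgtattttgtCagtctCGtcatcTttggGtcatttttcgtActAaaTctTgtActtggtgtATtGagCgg
Cacna1d 3′ exon: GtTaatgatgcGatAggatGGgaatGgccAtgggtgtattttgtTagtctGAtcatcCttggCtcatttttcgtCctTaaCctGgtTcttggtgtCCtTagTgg
The Cacna1c exons differed at 32 positions (69.2% identity) and the Cacna1d exons at 22 positions (78.8%). Between the genes, the 5′ exons were 86.5% identical and the 3′ exons 79.8%, so that the corresponding exons of the 2 genes were more alike than the 2 exons within either gene.

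The libraries held between 37942046 and 42994832 tags on genes. The deletion of Qk was visible in its own transcript. Per 100 tags on the junction of exons 3 and 4, 110.6 and 128.6 tags joined exons 2 and 3 in the controls, against 7.02 and 8.19 in Qk cKO. The junction of exons 2 and 3 held 635 and 565 tags against 63 and 68, and that of exons 3 and 4 held 574 and 439 against 898 and 830. Over the whole gene, Qk was higher in Qk cKO, at 32.5 and 34.2 RPKM against 21.1 and 21.7 RPKM (log2 fold change 0.65, edgeR quasi-likelihood FDR = 2.50e-05). The cortical marker Emx1 had 21.2 to 26.9 RPKM over the 4 samples, and the lowest of 4 dorsal telencephalon markers, Emx2, had 13.3 to 15.4 RPKM. The summed RPKM of these 4 was 127 and 114 in the controls and 110 and 115 in Qk cKO. That of 7 subpallial and interneuron markers was higher, at 152 and 160 in the controls and 160 and 163 in Qk cKO, so that the levels are not those of dorsal cells alone. RPKM are tags per kilobase of exon, scaled to the size of the library. Among the other cell types, the summed RPKM of 9 hypothalamic and diencephalic markers was 13.8 and 32.1 in the controls and 12.5 and 3.82 in Qk cKO, with 6 of the 9 genes called lower and none of them at 0 in any sample. The summed RPKM of 8 radial glial markers was 1633 and 1512 in the controls and 1329 and 1267 in Qk cKO. Of these 8, 2 were called lower and 3 had a log2 fold change above 0. Most of the difference in this sum lay in Fabp7, at 989 and 901 RPKM in the controls and 703 and 667 RPKM in Qk cKO. Pax6 was higher in both Qk cKO samples (39.0 and 38.7 RPKM) than in the controls (37.5 and 36.8 RPKM). What part the differences in the hypothalamic and radial glial sums had in the values given here was not tested.

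All 10 subunit genes were expressed, at means over the 4 samples from 3.27 RPKM (Cacnb4) to 50.7 RPKM (Cacnb3). The β subunit Cacnb3 was the highest, at 49.4 and 55.9 RPKM in the controls and 49.8 and 47.7 RPKM in Qk cKO. It was followed by Cacnb1, at 28.0 and 32.5 RPKM in the controls and 30.5 and 28.3 RPKM in Qk cKO. The third β subunit, Cacnb4, was the lowest of all members, and Cacnb3 made up 59.4% to 61.4% of the summed β subunit level in every sample. Among the pores, the order by mean RPKM over the 4 samples was Cacna1b (13.7), Cacna1h (12.3), Cacna1e (10.4), Cacna1g (10.1), Cacna1c (7.84), Cacna1a (5.39) and Cacna1d (4.42). The ranges of Cacna1b and Cacna1h overlapped, as did those of Cacna1e and Cacna1g, and the other neighbours in this order were separated in all 4 samples. Of the summed level of these pores, the P/Q, N and R type pores held 44.2% to 47.8%, the T type pores 33.4% to 36.5% and the L type pores 18.6% to 19.9%.

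**Figure D1:**
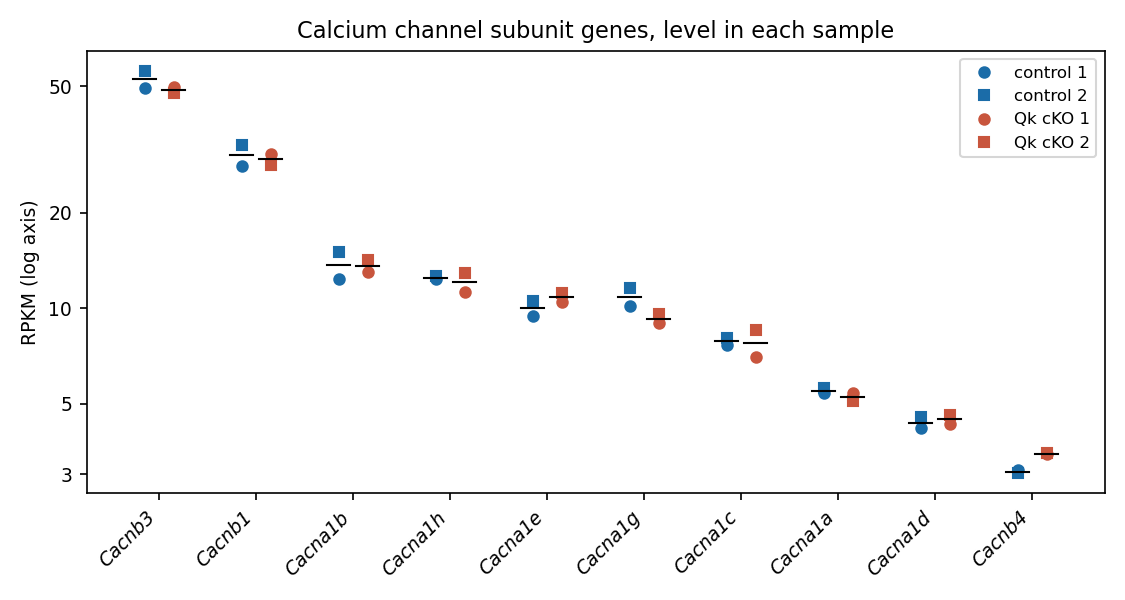
Level of each calcium channel subunit gene in RPKM on a log axis, in order of the mean. Circles and squares are replicates 1 and 2 of the control (blue) and Qk cKO (red) samples, and black lines are group means. Groups do not overlap for Cacna1g and Cacnb4, and the order of the genes is nearly the same in all samples.

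No subunit gene passed the gene-level call, which was an unadjusted p below 0.01 with a Benjamini-Hochberg FDR below 0.1 in edgeR's quasi-likelihood test over 18834 genes. Of all genes, 0.584% passed it. DESeq2 and edgeR's exact test also called 0 of the 10. Without adjustment, 2 of the 10 had a p below 0.05 (Cacna1g and Cacna1e), against 8.76% of all genes. The median log2 fold change of the 10 genes, Qk cKO against control, was -0.02, and that of all genes -0.00253. The median size of the change was 0.05 among the members and 0.12 among all genes tested. The 95% intervals of the 10 fold changes lay between -0.36 and 0.43 on the log2 scale, so that a 2-fold change of any of these genes was outside its interval. In bulk tissue, fewer cells that express a gene and less RNA per cell cannot be told apart.

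The T type pore Cacna1g had the lowest fold change of the 10 genes. It had 10.1 and 11.5 RPKM in the controls and 8.99 and 9.57 RPKM in Qk cKO. Both Qk cKO values were below both control values. The mean was 10.8 ± 0.996 RPKM (SD, n = 2) in the controls and 9.28 ± 0.411 RPKM (SD, n = 2) in Qk cKO. The log2 fold change was -0.21 (SE 0.07), which did not pass the call (edgeR quasi-likelihood FDR = 0.301). The hypothalamic and diencephalic marker sum was also lower in both Qk cKO samples than in both controls, and its part in the Cacna1g value was not tested. The T type pore Cacna1h had 12.4 and 12.6 RPKM in the controls and 11.2 and 12.9 RPKM in Qk cKO, and these overlapped (log2 fold change -0.04, SE 0.06).

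The accessory subunit Cacnb4 was the only other member whose groups did not overlap, with 3.09 and 3.03 RPKM in the controls against 3.47 and 3.50 RPKM in Qk cKO. The fold change was 0.20 on the log2 scale (SE 0.11), with an FDR of 0.646 in edgeR's quasi-likelihood test. Thus the groups were apart for 2 of 10 members, while they were apart for 36.9% of all genes tested. The R type pore Cacna1e had 9.49 and 10.6 RPKM in the controls and 10.5 and 11.2 RPKM in Qk cKO. These ranges overlapped, and its log2 fold change of 0.12 (SE 0.06) had an FDR of 0.566 in the same edgeR test.

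The remaining pores and β subunits had log2 fold changes between -0.10 and 0.05. Cacnb3 stood at -0.10 (SE 0.06) and Cacnb1 at -0.03 (SE 0.08). Among the pores, Cacna1a was at -0.05 (SE 0.09), Cacna1b at 0.00136 (SE 0.07), Cacna1c at -0.00540 (SE 0.08) and Cacna1d at 0.05 (SE 0.10). The control and Qk cKO ranges of these 6 genes and of Cacna1h overlapped. In the single samples, the N type pore Cacna1b had 12.4 and 15.0 RPKM in the controls and 13.0 and 14.2 RPKM in Qk cKO. The P/Q type pore Cacna1a had 5.40 and 5.62 RPKM against 5.43 and 5.10 RPKM. The L type pores Cacna1c (7.69 and 8.09 against 7.04 and 8.55 RPKM) and Cacna1d (4.20 and 4.54 against 4.33 and 4.63 RPKM) likewise had no separation between genotypes.

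**Figure D2:**
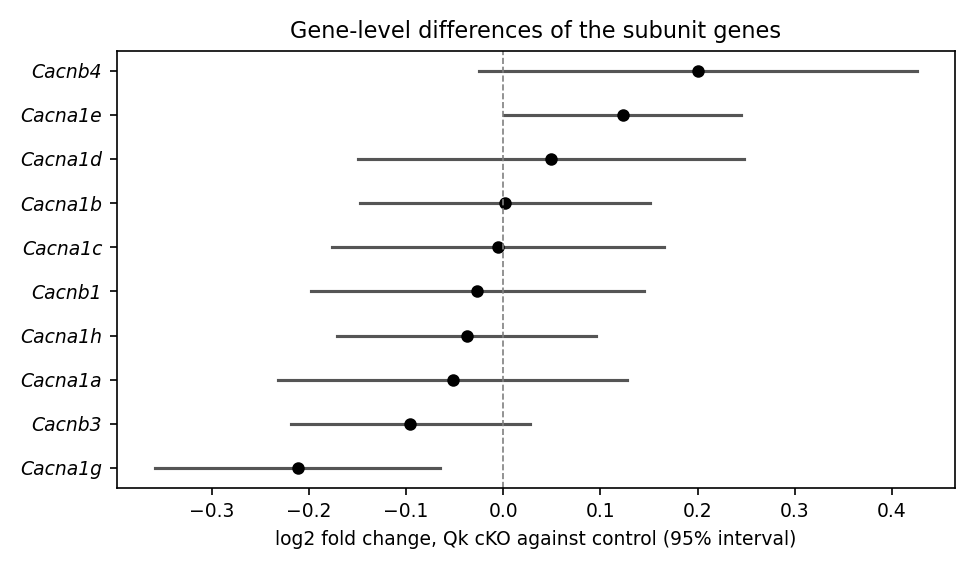
Log2 fold change of each subunit gene, Qk cKO against control, from edgeR's quasi-likelihood fit on 2 samples per group. Points are estimates and lines their 95% intervals without adjustment for the number of genes. Only the intervals of Cacna1g (below 0) and Cacna1e (above 0) exclude 0.

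Further subunits of these channels were not called either. Of 16 further subunit genes (the pores Cacna1f, Cacna1i and Cacna1s, the β subunit Cacnb2, and the α2δ and γ families), 0 were called by the edgeR quasi-likelihood test, 3 had an unadjusted p below 0.05, and the median log2 fold change of the 16 was -0.00566. Of all genes tested, 8.76% had such a p. The groups were apart for 8 of the 16, against 36.9% of all genes tested. The 3 with a p below 0.05 in the edgeR test, named after their values were seen, were Cacna1i, Cacng8 and Cacng2. Their log2 fold changes were -0.25, -0.34 and -0.44, and all had both Qk cKO values below both controls. The T type pore Cacna1i had 1.54 and 1.68 RPKM in the controls and 1.28 and 1.41 RPKM in Qk cKO. The highest were the γ subunits Cacng7 (72.4 RPKM on average over the 4 samples) and Cacng4 (56.8), which mainly act on glutamate receptors, and the α2δ subunits Cacna2d2 (20.7), Cacna2d3 (14.1) and Cacna2d1 (10.05), which carry the pore to the surface. Their log2 fold changes lay between -0.13 and 0.11. A further list held 24 genes for proteins that bind or act with the channels, such as calmodulin, calcineurin, release-site scaffolds and SNARE proteins. Of these 24, 0 were called and 1 had an unadjusted p below 0.05 in the same edgeR test, against 8.76% of all genes. Among the 5 highest were Calm2 (721 RPKM), Calm3 (288) and Ppp3ca (81.5), with log2 fold changes of 0.11, -0.13 and 0.03. The groups were apart for 7 of the 24, against 36.9% of all genes tested, and the median log2 fold change of the 24 was 0.00445. DESeq2 and edgeR's exact test called 0 genes of either list.

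Splicing was examined through the share of the first isoform of each event, calculated from the junction tags of each isoform divided by its number of junctions. For a cassette exon this share is the inclusion. ΔI is the share in the control minus that in Qk cKO, each from tags summed over the 2 replicates. An event was tested when its coverage, the smallest sum of junction tags over either isoform or either group, reached 20. Of the 58 events, 18 in 6 genes did so. No event of Cacna1a, Cacna1e, Cacna1h or Cacnb1 was tested. Of the 18, 1 event was called by Fisher's exact test (p below 0.01 and FDR below 0.1 within the event type), where 7.5% of all 11500 tested events were called. At an unadjusted p below 0.05 in Fisher's exact test there were 2 of the 18, against 16.8% of all tested events. The samples of the groups were apart in 9 of the 18, against 37.9% of all tested events. The absolute ΔI was at least 0.1 in 5 of the 18, against 11.4% of all tested events. The median coverage was 43.9 among the 18 and 65.8 among all tested events, and its part in these differences was not tested. Some of the 18 share tags, in Cacna1c, Cacnb3 and Cacnb4, and are not separate observations. The 9 include a listed exclusive pair of Cacnb3 and 1 of Cacna1c whose shares measure no choice between separate exons. These counts were therefore not read as an enrichment. Fisher's exact test treats summed tags as 1 sample per group and leaves out the spread between embryos. That spread was included by testing the isoform by genotype interaction in edgeR's quasi-likelihood fit. There 0 of the 18 were called, against 0.557% of all tested events. At an unadjusted p below 0.05 in the interaction test there was 1 of the 18, against 825 of all 11500 tested events.

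**Figure D3:**
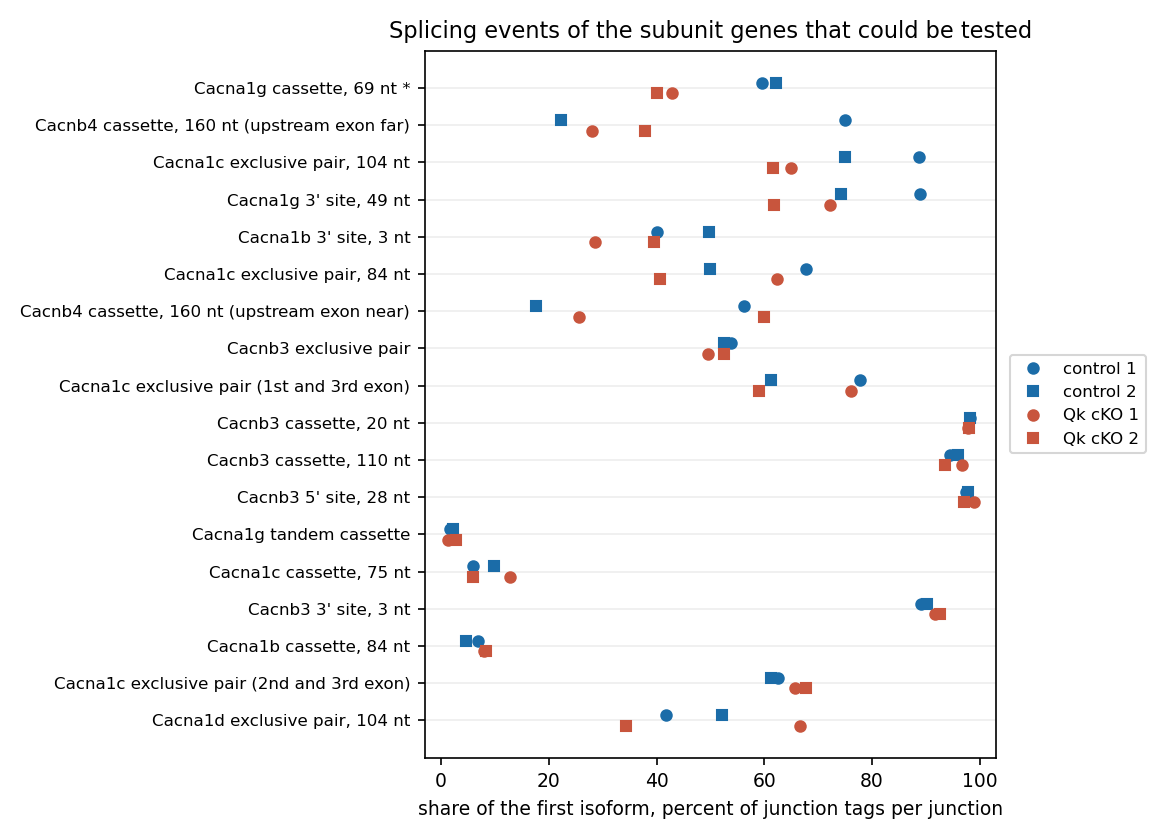
Share of the first isoform, in percent, in each sample for the 18 tested splicing events, ordered by ΔI with the largest positive value on top. The first isoform is inclusion for cassettes, the 5′ exon for exclusive pairs and the longer exon for alternative sites. The 3rd exon in the Cacna1c labels is a form of the 2nd with another 5′ splice site. The asterisk marks the called event, exon 14 of Cacna1g, in which both controls (59.6% and 62.1%) lie to the right of both Qk cKO samples (42.9% and 40%).

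Exon 14 of Cacna1g was included less in Qk cKO. Inclusion was 59.6% in control replicate 1 (95% Wilson interval 46.5% to 71.4%) and 62.1% in control replicate 2 (49.3% to 73.4%). It was 42.9% in Qk cKO replicate 1 (33.3% to 53.0%) and 40% in Qk cKO replicate 2 (28.3% to 52.9%). The groups were thus apart by more than the replicates of either (mean 60.8% ± 1.81 against 41.4% ± 2.02, SD, n = 2), although the intervals of single samples overlapped. These intervals cover counting error only. From summed tags, inclusion was 60.9% in the control (51.7% to 69.3%) and 41.8% in Qk cKO (34.2% to 49.8%), a ΔI of 0.191 (Fisher's exact test p = 0.00146, FDR = 0.0292 among cassette exons). Of all 4600 tested cassette exons, 9.28% were called. In the edgeR quasi-likelihood interaction test the same exon had FDR = 0.435. The call was lost in Fisher's exact test without control replicate 1 (ΔI 0.203, FDR = 0.126), without control replicate 2 (ΔI 0.178, FDR = 0.130) and without Qk cKO replicate 1 (ΔI 0.209, FDR = 0.201). It was kept without Qk cKO replicate 2 (ΔI 0.180, FDR = 0.0675).

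The tags behind this exon were counted on its junctions and on the exon itself, without scaling for library size. The junction that skipped exon 14 had 18 and 18 tags in the controls and 38 and 24 tags in Qk cKO. The junction into the exon had 19 and 30 tags in the controls and 25.0 and 16 in Qk cKO, and the junction out of it 34 and 29 in the controls and 32.0 and 16 in Qk cKO. The skipping junction was thus higher in both Qk cKO samples, whereas the 2 inclusion junctions overlapped between the groups. The exon itself held 47 and 48 tags in the controls and 42.0 and 29 tags in Qk cKO, and here both controls were higher. These are the inclusion tags that Fisher's exact test used, whereas ΔI uses the junction tags. The exon is shorter than a read, so tags on it and on its junctions are not separate observations. The gene-level values of Cacna1g were also lower in both Qk cKO samples. Because the exon is in frame, transcripts with and without it have the same reading frame on both sides.

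**Figure D4:**
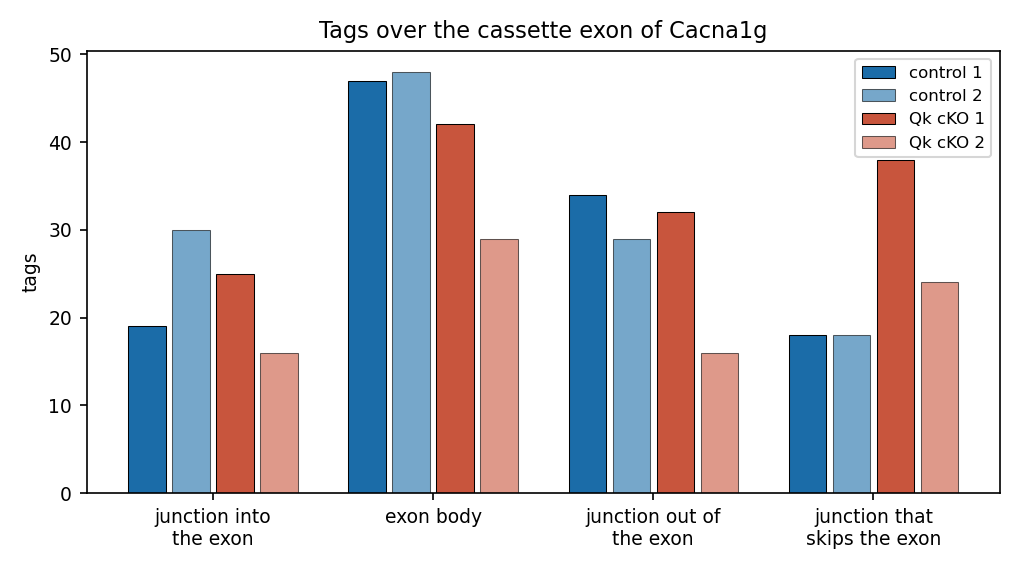
Estimated tags in each sample on the 2 junctions that include exon 14 of Cacna1g, on the exon itself and on the junction that skips it. Bars start at 0, and values are not scaled for library size. The skipping junction holds 38 and 24 tags in Qk cKO and 18 in each control.

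The cassette exons of other genes whose inclusion over the 4 samples was nearest to that of Cacna1g exon 14 were in Dvl1, Ccdc88a and Gprasp1, at Euclidean distances of 0.049, 0.0728 and 0.0802 on the 0 to 1 scale among 2619 cassette exons with a coverage of at least 50. Dvl1 encodes a Wnt signalling adaptor and Ccdc88a an actin-binding signalling protein. The Dvl1 exon was included at 0.557 and 0.637 in the controls and 0.452 and 0.411 in Qk cKO, and it was called (Fisher's exact test FDR = 0.0246). The Ccdc88a exon was called as well (FDR = 3.62e-04), and the Gprasp1 exon was not (FDR = 0.232). Because these exons were chosen by their inclusion in the same 4 samples, lower inclusion in Qk cKO was set by the choice. Their calls are therefore no separate evidence. None of the 3 passed the edgeR quasi-likelihood interaction test, with FDR values of 0.420, 0.313 and 0.631.

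The remaining tested events of Cacna1g lay towards the 3′ end of the gene. At an alternative 3′ splice site that adds 49 bases, the longer exon had a share of 88.9% and 74.3% in the controls and 72.3% and 61.8% in Qk cKO. The groups were apart, but the replicates of each differed by over 10 percentage points, and the ΔI of 0.132 was not called (Fisher's exact test p = 0.0952, FDR = 0.409). It fell to 0.0687 without control replicate 1 and to 0.0839 without Qk cKO replicate 2, and stood at 0.215 without control replicate 2. By junction tags, a pair of tandem exons near the 3′ end had a share of 1.66% and 2.19% in the controls. In Qk cKO its share was 1.33% and 2.87%. The deposited isoform tags, which Fisher's exact test used, gave the pair more. They were 14.05 and 26.12 for inclusion against 99.95 and 90.88 for skipping in the controls. In Qk cKO they were 13 and 16.41 against 74 and 118.7. Most tags thus skipped the pair in every sample by either count.

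In Cacna1c, the pore of the main neuronal and cardiac L type channel, the 5′ exon of the 104-base pair was chosen in 88.7% and 75.0% of the controls' tags and in 65.0% and 61.7% of those of Qk cKO. Both Qk cKO samples were below both controls. The tags behind these shares were 47 for the 5′ exon against 6 for the 3′ exon in control replicate 1, and 39 against 13 in control replicate 2. They were 26 against 14 in Qk cKO replicate 1, and 29 against 18 in Qk cKO replicate 2. The ΔI of 0.187 was not called (Fisher's exact test p = 0.0396, FDR = 0.416 among mutually exclusive exons), and it was 0.118 without control replicate 1. When only junction tags entered Fisher's exact test, p was 0.00503 and FDR 0.0557, and the pair was called. Under that setting 2 of the 18 member events were called, against 895 of all 11500 tested events. The edgeR quasi-likelihood interaction test gave an FDR of 1.

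In Cacna1d, the other L type pore, the groups overlapped at the corresponding pair. Its 5′ exon was used at 41.7% and 52.2% in the controls and at 66.7% and 34.4% in Qk cKO. The replicates of Qk cKO lay on both sides of the controls, and the ΔI was -0.0607 (Fisher's exact test p = 0.835). With 59 and 50 junction tags in the groups, the summed shares of 45.8% (95% Wilson interval 33.7% to 58.3%) and 51.8% (38.5% to 65.2%) overlapped widely. The difference between the Cacna1c and Cacna1d changes was not tested.

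**Figure D5:**
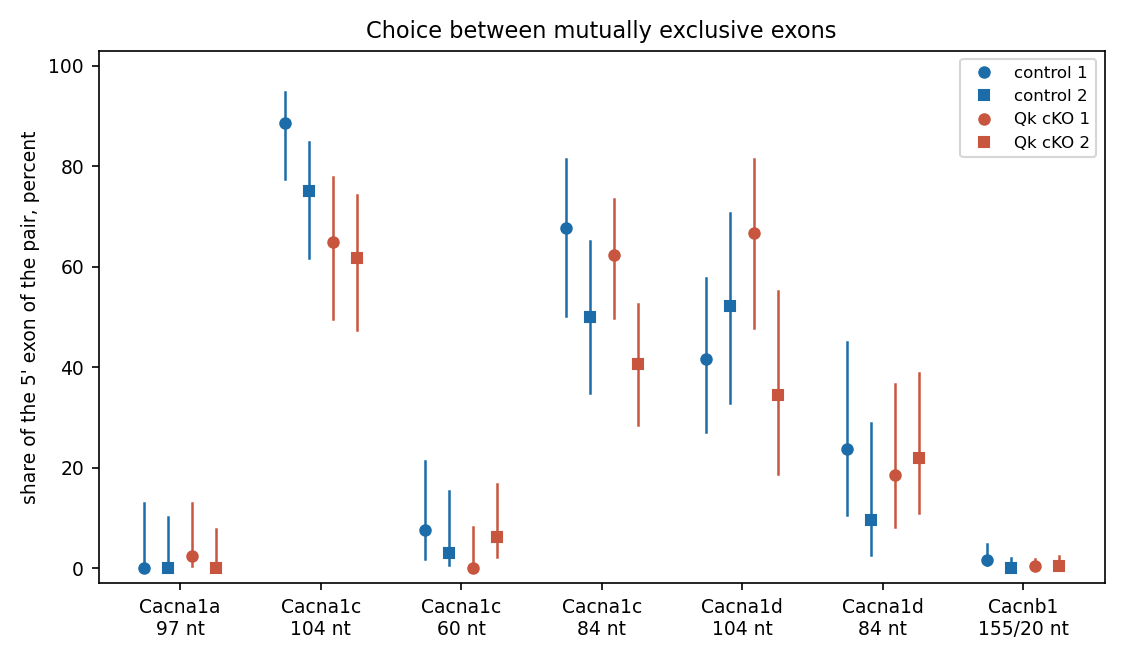
Share of the 5′ exon of mutually exclusive exon pairs, in percent, in each sample, with 95% Wilson intervals from the junction tags. Pairs are named by gene and by exon length in bases, and the 155-base and 20-base exons of Cacnb1 are the pair of unequal length. The 104-base pair of Cacna1c is the one in which both controls (88.7% and 75.0%) lie above both Qk cKO samples, and the pairs of Cacna1a and Cacnb1 are near 0 throughout.

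No other exclusive pair was called. In the 84-base pair of Cacna1c (chr6:118638427-118638510 and chr6:118637730-118637813), which encodes the third segment of the fourth repeat, the 5′ exon had 67.7% and 50% in the controls and 62.3% and 40.7% in Qk cKO. This event was not called, with p = 0.459 by Fisher's exact test. An alternative 5′ splice site of the 3′ exon gave 2 more listed events, with ΔI values of 0.0065 and -0.0520. They share tags with the first, and neither was called. The junction used by this form alone held 1 and 1 tags in the controls and 2 and 0.229 in Qk cKO. Its other junction is also that of the 3′ exon, so these 2 shares are no measure of a choice between separate exons. The 84-base pair of Cacna1d had a coverage of 19 and was not tested, with a 5′ exon share of 9.52% to 23.8% over the 4 samples.

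By junction tags the choice was almost complete for several pairs, which left too few of the rarer isoform for a test. In the P/Q type pore Cacna1a, the 97-base pair near the 3′ end (chr8:84614695-84614791 and chr8:84615574-84615670) encodes part of the EF-hand-like region of the C-terminus. Its 5′ exon had 0 of 60 junction tags in the controls, which allows a share of up to 5.0%, and 1.18% of 85 tags in Qk cKO (95% Wilson interval 0.208% to 6.37%). Thus nearly all junction tags of this Cacna1a pair lay on the 3′ exon. The deposited isoform tags gave the 5′ exon more. They were 5 and 3 against 21 and 29 for the 3′ exon in the controls, and 7 and 1 against 36 and 36 in Qk cKO. Among annotated transcripts that join both neighbouring exons, 1 carries the 3′ exon and 3 carry the 5′ exon. In Cacna1c the 5′ exon of the 60-base pair had 5.17% in the controls and 3.30% in Qk cKO. In Cacnb1 the 155-base exon had 0.833% in the controls and 0.376% in Qk cKO, so that the 20-base exon was joined in nearly all transcripts of both genotypes.

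Other cassette exons of the pores were likewise near their limits. In the N type pore Cacna1b, a cassette exon of 84 bases was included at 6.82% and 4.63% in the controls and 7.96% and 8.31% in Qk cKO. Both Qk cKO samples were higher, and the ΔI of -0.0264 was not called (Fisher's exact test p = 0.389). The 97-base exon of Cacna1b at chr2:24625238-24625334 was included at 84.1% to 94.1% and was not tested, with a coverage of 16. In Cacna1c a 75-base exon at chr6:118715903-118715977 was included at 6.02% and 9.76% in the controls and 12.7% and 6.02% in Qk cKO. These ranges overlapped. For Cacna1e and Cacna1h, the inclusion isoform of the cassette and tandem events had a share of at least 96.7% in every sample.

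A 3-base alternative 3′ splice site of Cacna1b had the longer exon at 40% and 49.8% in the controls and at 28.6% and 39.5% in Qk cKO. The groups were apart, but by less than the replicates of either group differed, and the ΔI of 0.115 was not called (Fisher's exact test p = 0.132, FDR = 0.488). It was 0.0667 without control replicate 2 and 0.0534 without Qk cKO replicate 1. Cacnb3 also has a 3-base site, and there the longer exon was used at 89.0% and 90.2% in the controls and at 91.6% and 92.7% in Qk cKO. The groups were apart at a coverage of 129, and the ΔI of -0.0251 was not called (p = 0.141 by Fisher's exact test).

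The exons of Cacnb3 were otherwise included almost fully. The 20-base exon at chr15:98640959-98640978 was included at 97.8% to 98.2% and the 110-base exon at chr15:98641616-98641725 at 93.4% to 96.7% over the 4 samples. An event listed as an exclusive pair of the 20-base exon and the 81-base exon that follows it had shares between 49.6% and 53.9%. In that event, the junctions that would join 1 of the 2 exons without the other had at most 7.11 tags in any sample, while the others had 243 to 309. The exons were thus used together, and the share near 50% is no measure of a choice between them.

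In Cacnb4 both tested events concern 1 exon of 160 bases at chr2:52556202-52556361 near the start of the gene, which is partly coding, and they differ in the upstream exon. With the far upstream exon its share was 75.0% and 22.2% in the controls and 28.0% and 37.9% in Qk cKO. With the near one it was 56.2% and 17.6% in the controls and 25.6% and 60.0% in Qk cKO. The control replicates thus differed more from each other than the genotypes did. The ΔI of 0.190 of the first event was among the largest of the family, but its sign turned to -0.111 without control replicate 1, and it was not called (Fisher's exact test p = 0.473). In control replicate 1, 0 tags joined the far exon to this exon and 18 tags left it.

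Among the other subunit genes, 3 of 19 events were tested, 0 were called by Fisher's exact test or by the edgeR quasi-likelihood interaction test, and 0 had an unadjusted p below 0.05. Among the channel partners, 42 of 84 events in 15 genes were tested, 8 had an unadjusted p below 0.05 in Fisher's exact test (against 16.8% of all) and 1 was called (against 7.5%), a retained intron of Calm2, which encodes calmodulin. The retained share, on the 0 to 1 scale, was 0.00793 and 0.00449 in the controls and 0.00945 and 0.0112 in Qk cKO, a ΔI of -0.0040 (Fisher's exact test FDR = 3.49e-04). Both Qk cKO values were higher, but the edgeR quasi-likelihood interaction test gave an FDR of 0.683.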

How the data were processed

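The authors mapped the libraries with OLego (mm10 build, known splice junctions supplied) and counted tags with Quantas. For each gene they deposited an estimated count of tags and its RPKM, and for each event estimated counts of tags per isoform and per junction. The library kit (TruSeq RNA v2) does not mark strand. The members and lists were chosen with earlier results of these data known. Tag counts were rounded and tested with edgeR 4.0.16 (R 4.3.3) over genes with at least 1 tag. Events were tested with Fisher's exact test, two-sided, on the deposited isoform tags summed per group, and with edgeR's interaction test, both tested on simulated data. Standard errors were derived from the F statistic. With 2 samples per group, an exact permutation test of 1 value cannot give p below 0.333, so none was made. Alternatives were DESeq2 1.42.0 and other scalings, filters, coverage minimums, blocks and samples. Named were all members, Qk, the 5 highest genes of each related list, called events, each member's largest ΔI and those of at least 0.1, and the 3 nearest events to a called event. Exon positions and sequences were taken from GENCODE M21. Genome sequence and proteins were not used here. Some genes under this rule are not reported here.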

Additional observations from a re-analysis of the deposited data

How the results depend on the processing

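No subunit gene was called under any of the 10 alternatives. The count over all genes was 57 with edgeR's exact test, 11 with filterByExpr and 192 with the replicate block, and leaving out 1 sample gave 0 (control replicate 2) to 428 (Qk cKO replicate 1), against 110. Fold changes near 0 turned in sign: Cacna1b with upper-quartile scaling (-0.00594). Leaving out 1 sample gave log2 fold changes of -0.11 to 0.00183 for Cacna1a, -0.13 to 0.14 for Cacna1b, -0.14 to 0.11 for Cacna1c, -0.00499 to 0.10 for Cacna1d, -0.13 to 0.0459 for Cacna1h and -0.13 to 0.0808 for Cacnb1. Those of Cacna1e (0.05 to 0.20), Cacna1g (-0.30 to -0.12), Cacnb3 (-0.18 to -0.00965) and Cacnb4 (0.18 to 0.22) kept their sign.

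Of the 18 tested subunit events, 2 were called with junction tags only and 0 with edgeR's interaction test, against 1 in the main test. Over all events, 64 were called with the interaction test and 488 to 722 with 1 sample left out, against 862. For Cacna1g exon 14, the interaction test gave FDR = 0.435 and has no ΔI of its own. Its ΔI was 0.178 to 0.209 with 1 sample left out, against 0.191. ΔI ran from -0.209 to 0.114 for the 104-base pair of Cacna1d and from -0.111 to 0.417 for the Cacnb4 exon with 1 sample left out. It ran from 0.118 to 0.255 for the 104-base pair of Cacna1c, 0.0534 to 0.165 for the 3-base site of Cacna1b and 0.0687 to 0.215 for the 49-base site of Cacna1g. The cause of these moves was not tested.

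Outside the replicate block, the replicate numbers were used only to name the samples. Between samples of the same number, deviations from the group means correlated at 0.303 over 12928 genes, -0.0808 over 12442 autosomal genes and -0.0140 over 11497 events. The correlation over all genes was thus absent among autosomal genes. Whether samples of the same number share their sex was not tested. The replicate block (for events a Cochran-Mantel-Haenszel test with continuity correction) called 0 subunit genes and 1 subunit event, Cacna1g exon 14 (FDR = 0.0434). It called 739 events in all and leaves ΔI as it was. Of the 58 events, 40 were not tested. In 32 of these 40, each group had at least 20 junction tags, and it was the rarer isoform that had too few. Replicates are 2 per group, so that the spread between embryos is poorly known.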
